A study of Rattus norvegicus with 8 samples.

Results

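Il24, Il6 and the signalling route that runs from the cytokines of the gp130 family to the transcription factor Stat3 were examined as 10 genes on 8 arrays. The genes were the cytokines Il24, Il6, Lif and Cntf, the receptor genes Cntfr, Lifr, Il6st and Osmr, and the signalling genes Stat3 and Socs3. The set was chosen by name and by measured values, the group differences of the scaled log2 signals on these same arrays, Il24 among them for its high signal with P61S/R100E. Their values are therefore a description, without a test of their own. Probes were matched to them by the RefSeq accession in the scanner files. All 10 genes were found, with 1 probe each, among 15154 named genes and 30367 probes, and all 10 probes were well above background on all 8 arrays.

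Neonatal Wistar rats, 0 to 5 days old, gave the dorsal root ganglia, which hold the cell bodies of sensory neurons and their glia, and male and female cells were dissociated and pooled for culture. The cultures were kept in serum-free medium with the antimitotic nucleosides 5-fluoro-2′-deoxyuridine and uridine and were exposed over 5 days to 100 ng/ml of a human protein, either as the wild type (n = 2 arrays), with the P61S substitution (n = 3) or with both P61S and R100E (P61S/R100E, n = 3). All groups received a form of the same protein, whose name is not reported here, and cultures without it were not analysed here. The arrays read the RNA of neurons and non-neuronal cells together, so fewer cells of a type and less RNA per cell cannot be told apart, and the labels do not say whether replicates were separate cultures or animals, so the errors measure only the spread between these samples. Each value is a log2 signal relative to the 75th percentile of its array, so 0 is the signal at that percentile.

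Interleukin-6, leukaemia inhibitory factor (Lif), ciliary neurotrophic factor (Cntf) and oncostatin M signal through receptor complexes that share the chain gp130, encoded by Il6st. Janus kinases bound to that chain phosphorylate Stat3, which enters the nucleus and induces its targets, among them Socs3, a feedback inhibitor of the receptor. In sensory ganglia these cytokines are known from the response to nerve injury, where they induce neuropeptides such as vasoactive intestinal peptide and galanin. Il24 belongs to the interleukin-10 family and acts through other receptors, built from Il20ra, Il20rb and Il22ra1, which also signal to Stat3.

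Depth and quality of the arrays were similar except for 1 array. The 75th percentile signals ran from 3267 to 5269, between 78.7% and 88.8% of 58717 spots passed the scanner's background test, and none (0) reached saturation. Wild type replicate 2 had the lowest 75th percentile and stood apart, with correlations across probes of 0.983 to 0.989 with the other arrays. Markers of neurons, satellite glia, Schwann cells, fibroblasts and macrophages were present: all 6 neuronal probes, all 7 Schwann cell probes, all 6 fibroblast probes, all 8 macrophage probes and 5 of 6 satellite glia probes were above background on all 8 arrays. The summed signal of the neuronal markers (linear, with the 75th percentile as 1) was 120 to 137 with P61S, 127 to 137 with P61S/R100E and 127 to 151 with the wild type, so the sums overlapped. Single neuronal markers differed more: the median log2 difference of P61S/R100E from P61S was 0.04, with Tubb3 the highest at 0.35. The fibroblast sums were 126 to 140 with P61S, 132 to 162 with P61S/R100E and 139.7 to 139.8 with the wild type. The 6 fibroblast markers differed by 0.00 to 0.26 from P61S (median 0.14, beside -0.02 for all probes). From the wild type they differed by -0.25 to 0.22 (median 0.04, beside -0.06).

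Il24 had the widest separation of the groups among the 10 genes. Its signal (probe A_43_P15489) was 0.12, 0.33 and 0.26 on the 3 P61S/R100E arrays, -1.40, -0.76 and -1.45 on the P61S arrays, and -1.46 and -1.37 on the wild type arrays. Every P61S/R100E array lay above every other array, by at least 0.89 against P61S and 1.49 against the wild type. The mean was 0.24 ± 0.11 (SD, n = 3) with P61S/R100E, -1.21 ± 0.38 (SD, n = 3) with P61S and -1.41 ± 0.06 (SD, n = 2) with the wild type. The level was therefore 2.72-fold that of P61S (log2 difference 1.45, SE 0.188, 95% bounds 1.00 and 1.89) and 3.14-fold that of the wild type (1.65, SE 0.21, 95% bounds 1.15 and 2.15). Both comparisons use the same 3 P61S/R100E arrays and are not independent.

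Between P61S and the wild type Il24 overlapped. The difference was 0.21 (SE 0.21, 95% bounds -0.29 and 0.70), and P61S replicate 2, at -0.76, was the highest array of its group. Without that array the difference was -0.01, so its sign rests on 1 array. Each array read Il24 from 2 spots, and the SD between the spots of an array, which is technical error only, was 0.010 to 0.054. All 8 arrays lay on 1 slide, in 2 rows, and both wild type arrays were in column 4, where no other array was, so column and protein cannot be told apart against the wild type. The excess of P61S/R100E over P61S was 1.21 within slide row 1 (P61S/R100E replicate 1, P61S replicates 1 and 2). It was 1.75 within row 2 (P61S/R100E replicates 2 and 3, P61S replicate 3). Within column 2, the only column that held both groups, it was 1.10, from replicate 2 of each group alone. The other P61S arrays were in column 1 and the other P61S/R100E arrays in column 3. Column and protein are thus largely confounded against P61S as well.

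Because Il24 had the largest difference of the 10 genes, the 250 bases before its annotated start are shown, from RefSeq on build GRCr8 (chr13:44910761-44911010, minus strand), written 5′ to 3′ in lower case with the match to the Stat motif in capitals. The array design was made for another build, rn4, and was matched by accession only.
Il24: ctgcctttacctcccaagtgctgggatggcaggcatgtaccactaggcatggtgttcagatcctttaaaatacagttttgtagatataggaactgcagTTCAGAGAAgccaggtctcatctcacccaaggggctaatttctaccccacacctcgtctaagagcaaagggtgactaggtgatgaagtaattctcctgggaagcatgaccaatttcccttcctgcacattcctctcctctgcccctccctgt
The motif searched for Stat factors was TTCNNNGAA, on both strands. Il24 held 1 match, TTCAGAGAA, at positions -152 to -144 from the start, and 7.67% of 33469 promoter windows of the same length held at least 1. The windows of Cntf, Lifr, Il6st, Osmr, Stat3, Socs3 and Il6 held 0 matches to these letters, and Lif and Cntfr were not in the table. A match describes the letters and not a site in use.

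**Figure D1:**
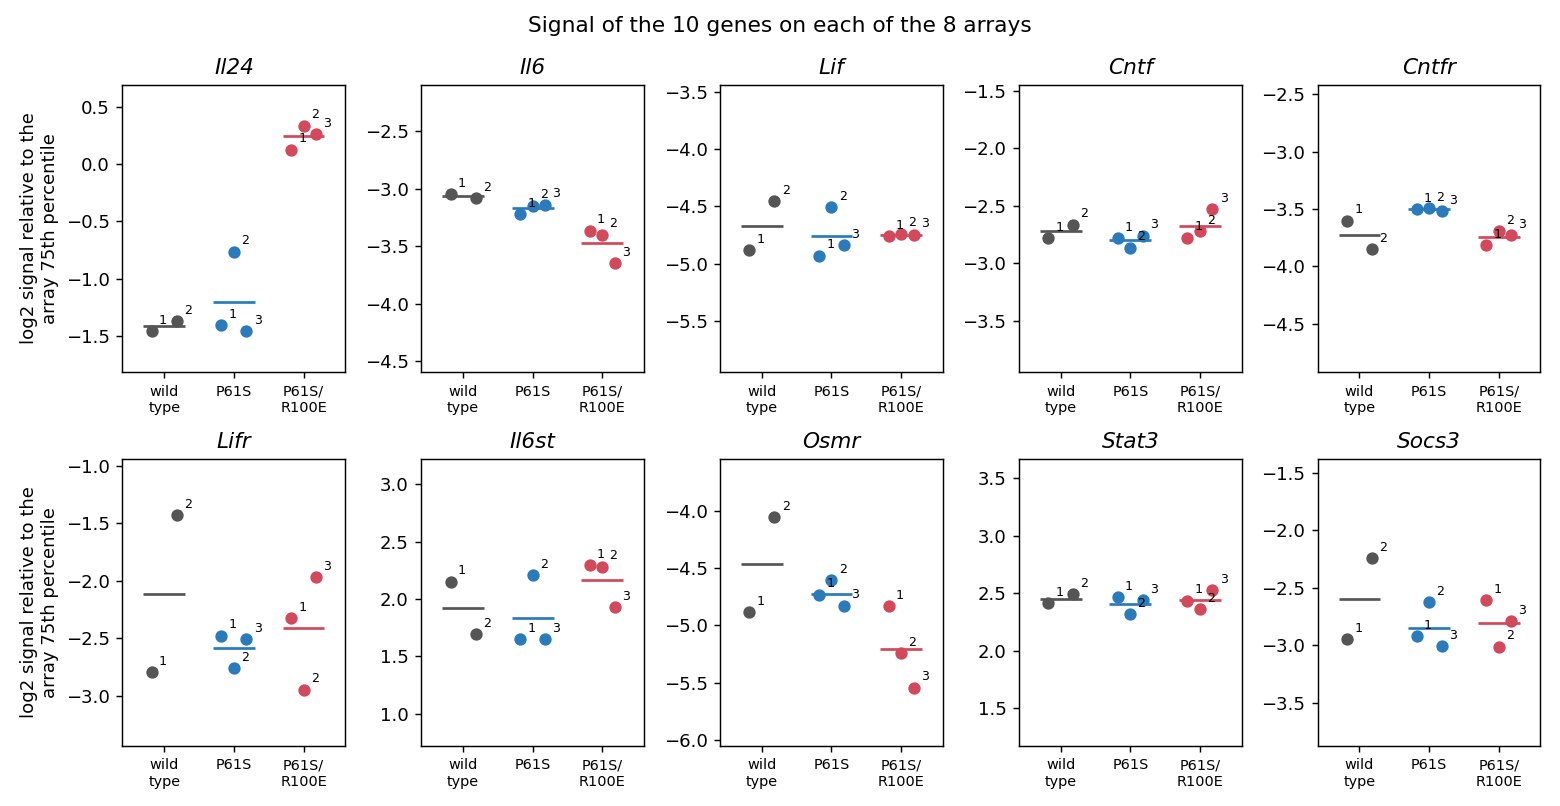
Log2 signal relative to the 75th percentile of the array (y axis, the same span of 2.5 in every panel) for the 10 genes in the wild type (n = 2), P61S (n = 3) and P61S/R100E (n = 3) arrays; points are single arrays with their replicate number and lines are group means. Il24 is near 0.24 with P61S/R100E and near -1.4 with the wild type, Il6 is lower with P61S/R100E by less, and wild type replicate 2 is the highest array for Lifr, Osmr and Socs3.

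Il6 was read lower with P61S/R100E, by a smaller difference. This gene encodes interleukin-6, the cytokine that gives the gp130 family its best known member. Its signal (A_44_P371339) was -3.36, -3.40 and -3.65 with P61S/R100E, -3.22, -3.15 and -3.14 with P61S, and -3.04 and -3.08 with the wild type. The 3 groups did not overlap, with P61S/R100E lowest and the wild type highest. The difference was -0.30 (SE 0.0967, 95% bounds -0.53 and -0.07) from P61S, 0.81 times its level, and -0.41 (SE 0.108, 95% bounds -0.66 and -0.15) from the wild type, 0.754 times its level. P61S and the wild type were 0.06 apart at their nearest arrays, and their difference of -0.10 (95% bounds -0.36 and 0.15) was within its error and turned to 0.01 with quantile normalization.

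The Il6 probe was spotted 10 times on each array, and the SD over spots, which is technical error only, was 0.038 to 0.096. Between arrays of a group the SD was 0.102, and the nearest P61S/R100E and P61S arrays were 0.15 apart. P61S/R100E replicate 3 was the lowest array, and without it the difference from P61S was -0.22. It was -0.18 within slide row 1 and -0.39 within row 2. The difference from the wild type was -0.24 after normexp background correction with quantile normalization and -0.27 with quantile normalization alone, in place of -0.41.

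The window before the Il6 start (chr4:5894576-5894825, minus strand, GRCr8, from RefSeq) is shown for comparison with Il24. Capitals mark a match to the cyclic AMP response element, TGACGTCA, and one to an NF-kB motif, both searched on both strands.
Il6: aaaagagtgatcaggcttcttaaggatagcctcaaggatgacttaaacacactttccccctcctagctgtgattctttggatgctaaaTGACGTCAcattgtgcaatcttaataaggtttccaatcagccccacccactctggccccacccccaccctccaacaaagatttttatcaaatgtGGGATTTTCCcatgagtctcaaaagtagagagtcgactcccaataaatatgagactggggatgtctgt
TGACGTCA lay at -162 to -155, and 1.59% of the 33469 windows held it. The NF-kB match, GGGATTTTCC, lay at -68 to -59, and 1.30% of windows held that motif. Il24 had no match to either, and neither gene held the AP-1 motif TGANTCA, which 6.34% of windows held. The windows of Il24 and Il6 thus had none of the 4 motifs searched in common. Of the other genes of the set, Cntf and Osmr held 1 AP-1 match each.

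Lif and Cntf, the other cytokines of the set, had groups that overlapped. Lif, a cytokine that Schwann cells release after injury, had signals (A_64_P115666) of -4.76, -4.74 and -4.75 with P61S/R100E, -4.93, -4.50 and -4.84 with P61S, and -4.88 and -4.46 with the wild type. P61S/R100E lay inside the range of both other groups, at 0.01 from P61S (95% bounds -0.35 and 0.37) and -0.08 from the wild type (95% bounds -0.48 and 0.32). Cntf is a survival factor stored in Schwann cells. It read -2.78, -2.72 and -2.53 with P61S/R100E, -2.78, -2.86 and -2.76 with P61S and -2.78 and -2.66 with the wild type (A_44_P323404, 10 spots per array). The groups overlapped, and the difference of P61S/R100E was 0.12 from P61S (SE 0.0942, 95% bounds -0.10 and 0.35) and 0.05 from the wild type (95% bounds -0.20 and 0.30).

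Among the receptors, Cntfr was lower with both P61S/R100E and the wild type than with P61S. Cntfr encodes the binding chain for Cntf, which has no signalling domain of its own. Its signal (A_64_P103174) was -3.81, -3.69 and -3.72 with P61S/R100E, -3.50, -3.49 and -3.52 with P61S, and -3.60 and -3.85 with the wild type. The P61S arrays lay close together and above all other arrays. The difference of P61S/R100E was -0.24 from P61S (SE 0.09, 95% bounds -0.45 and -0.03) and -0.02 from the wild type (SE 0.101, 95% bounds -0.26 and 0.22), and P61S exceeded the wild type by 0.22 (95% bounds -0.02 and 0.46). Without wild type replicate 2 the excess of P61S was 0.10, and without replicate 1 it was 0.34. The sign of the P61S/R100E difference from the wild type turned with the scaling, to 0.12 with quantile normalization, and with 1 array, to 0.10 without wild type replicate 1.

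Osmr, the oncostatin M receptor chain that pairs with gp130, was read lower with P61S/R100E, with a wide spread. Its signal (A_64_P018811) was -4.83, -5.24 and -5.54 with P61S/R100E, -4.73, -4.61 and -4.83 with P61S, and -4.88 and -4.05 with the wild type. The P61S/R100E and P61S groups were separate by only 0.005, and P61S/R100E overlapped with the wild type. The difference was -0.48 from P61S (SE 0.253, 95% bounds -1.08 and 0.12) and -0.74 from the wild type (SE 0.283, 95% bounds -1.41 and -0.07). Wild type replicate 2 set much of the latter: without it the difference was -0.32, and without wild type replicate 1 it was -1.15. Within slide row 1 P61S/R100E was 0.05 above the wild type, and within row 2 it differed by -1.33. The difference from P61S was -0.16 within row 1 and -0.56 within row 2, and -0.31 without P61S/R100E replicate 3.

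Lifr and Il6st make up the Lif receptor, and neither separated the groups. Lifr read -2.32, -2.95 and -1.97 with P61S/R100E, -2.48, -2.76 and -2.51 with P61S and -2.80 and -1.43 with the wild type (A_44_P263355, 1 spot per array). Its within-group SD of 0.544 was the largest of the 10 genes, and the difference from the wild type went from -0.30 to 0.38 without wild type replicate 2 and to -0.99 without replicate 1. Il6st, the gp130 chain shared by the whole family, read 2.29, 2.28 and 1.93 with P61S/R100E, 1.65, 2.21 and 1.65 with P61S and 2.15 and 1.69 with the wild type (A_42_P705481, 1 spot per array). P61S/R100E was above P61S in 8 of 9 pairs of arrays, with a difference of 0.33 (SE 0.206, 95% bounds -0.15 and 0.82). In the fit that adjusted for slide column that difference was 0.08. Against the wild type the difference was 0.25 (95% bounds -0.30 and 0.79), and 0.02 without wild type replicate 2 or 0.48 without replicate 1. Il6st overlapped in both comparisons.

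Stat3 had the narrowest spread of the set. The transcription factor read 2.43, 2.36 and 2.53 with P61S/R100E, 2.46, 2.31 and 2.44 with P61S, and 2.41 and 2.49 with the wild type (A_44_P787936, 1 spot per array). Its difference was 0.04 from P61S (95% bounds -0.17 and 0.24) and -0.01 from the wild type (95% bounds -0.24 and 0.21). The arrays measured RNA, so phosphorylation of Stat3, by which the factor is activated, was not measured.

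Socs3, the feedback inhibitor that Stat3 induces, read -2.61, -3.01 and -2.79 with P61S/R100E, -2.92, -2.62 and -3.01 with P61S, and -2.95 and -2.24 with the wild type (A_64_P125883). The groups overlapped, with differences of 0.05 from P61S (95% bounds -0.45 and 0.55) and -0.21 from the wild type (95% bounds -0.77 and 0.35). Before scaling, the Socs3 intensity was nearly the same on all arrays, between 591.8 and 691. The 3 arrays with the lowest 75th percentile, wild type replicate 2 (3267), P61S/R100E replicate 1 (3744) and P61S replicate 2 (3946), were therefore the 3 with the highest scaled Socs3 value. The part of the scaling in the Socs3 differences was not tested. Their sign was not stable: against the wild type the difference ran from -0.56 without wild type replicate 1 to 0.14 without replicate 2 and 0.23 in the fit that adjusted for slide column, and it was 0.06 after normexp with quantile normalization. Against P61S it turned to -0.39 with the slide column.

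**Figure D2:**
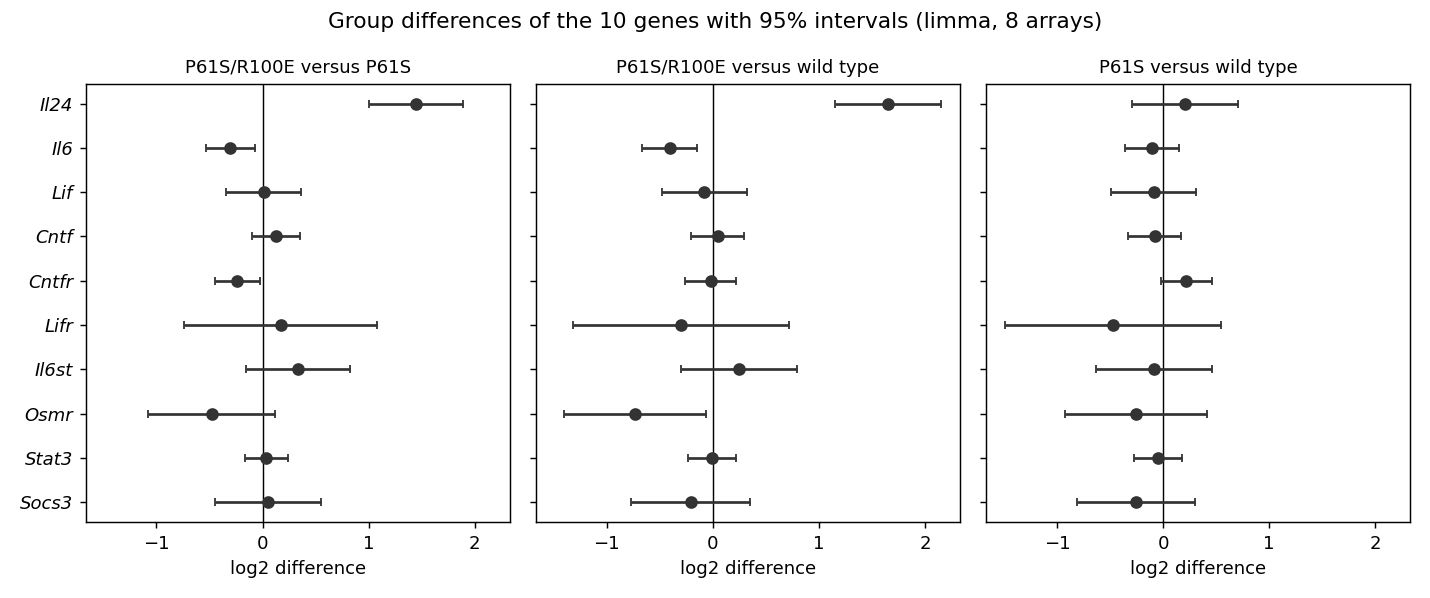
Log2 difference (x axis) of each of the 10 genes (y axis) in the 3 comparisons, from 1 limma fit of 8 arrays; points are estimates and bars their 95% intervals. Il24 stands at 1.45 and 1.65 in the comparisons of P61S/R100E, while Stat3 and Lif sit near 0 and Lifr has the widest bars.

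In the order of the groups, Il24 was highest with P61S/R100E, while its P61S and wild type values differed by no more than their spread. Il6 was lowest with P61S/R100E, and Cntfr was highest with P61S. In the fit of all probes limma called 0 of 23596 probes in each of the 3 comparisons at a Benjamini-Hochberg adjusted p under 0.05 (0% of probes), and so 0 of the 10 genes. At an unadjusted p under 0.05 it counted 947 probes (4.01%) against P61S, 1189 (5.04%) against the wild type and 490 (2.08%) between P61S and the wild type. Of all probes, 1.94% were higher and 2.07% lower than P61S, 1.6% higher and 3.44% lower than the wild type, and 0.695% higher and 1.38% lower with P61S than with the wild type. The 10 genes gave 3 against P61S (Il24 higher; Il6 and Cntfr lower), 3 against the wild type (Il24 higher; Il6 and Osmr lower) and 0 between P61S and the wild type. Since these contrasts were in view when the genes were listed, nothing is read from those counts.

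The groups of P61S/R100E and P61S did not overlap for 4 of the 10 genes (Il24 higher; Il6, Cntfr and Osmr lower), where 14% of all probes did so (5.75% higher and 8.23% lower). Against the wild type this held for Il24 and Il6, beside 15.1% of all probes (5.86% higher and 9.2% lower). Between P61S and the wild type it held for Cntfr (higher) and Il6 (lower), beside 16.6% (7.39% higher and 9.23% lower). Il24 was the gene above both other groups (2.38% of all probes were) and Il6 the gene below both (3.14%). By size of difference Il24 stood at rank 68 of 23596 probes against P61S and 86 against the wild type. The call on Il24 changed with either of 2 arrays: without P61S replicate 2, limma called 3 probes against P61S and 2 against the wild type, Il24 among them in both. Without wild type replicate 1 it called 1284 probes against the wild type, Il24 among them, and Il24 was not called against P61S. Il24 was higher with P61S/R100E in 9 of 9 and 6 of 6 pairs of arrays.

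Genes around the pathway were counted in 7 lists of 84 genes, of which 75 were on the array by name and 66 could be tested. limma called 0 of the 66 in each comparison. At an unadjusted p under 0.05 there were 7 higher and 1 lower against P61S (12.1% of 66, beside 4.01% of all probes) and 4 higher and 4 lower against the wild type (12.1%, beside 5.04%). The median log2 difference of the 66 was 0.00 against P61S and -0.06 against the wild type, where the medians of all probes were -0.02 and -0.06. The lists were written with earlier results of these arrays known, and Vip, Gal and Reg3b in them were known to differ.

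**Figure D3:**
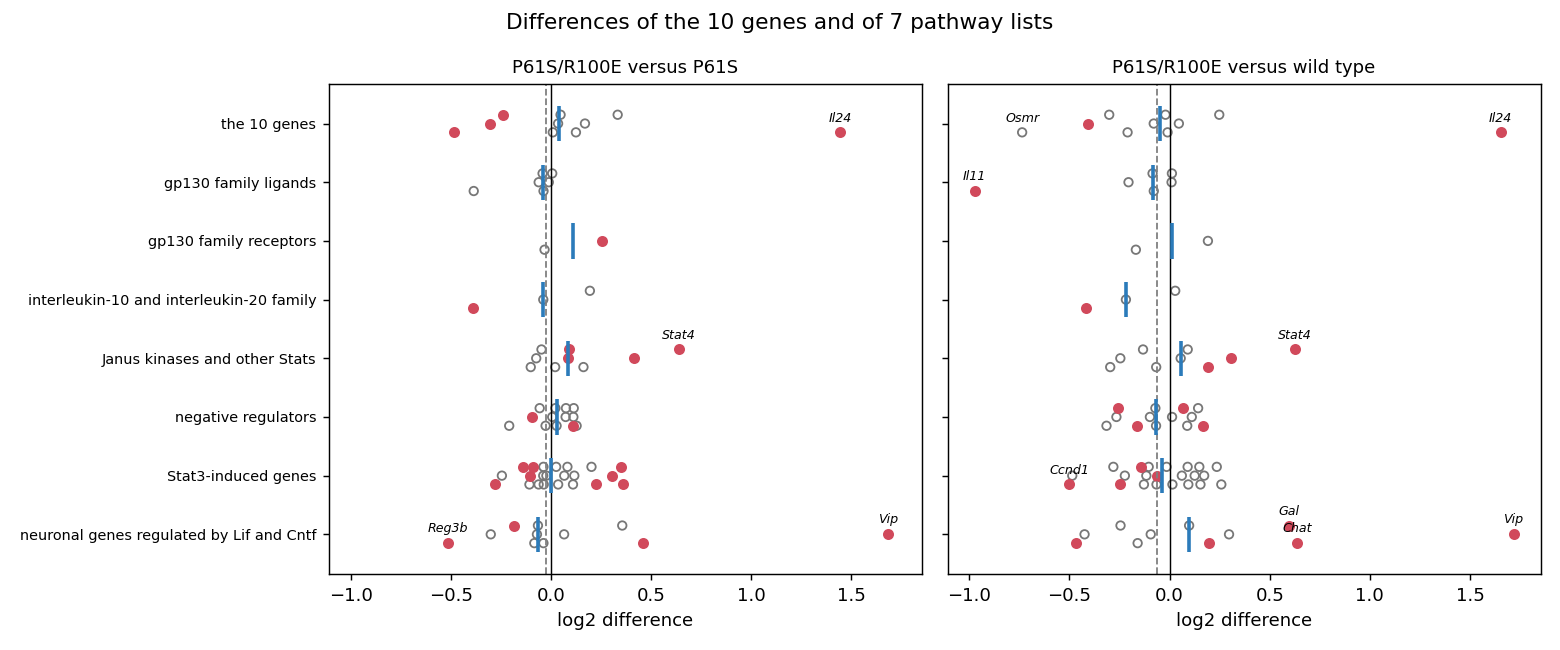
Log2 difference (x axis) of the 10 genes and of the tested genes of 7 pathway lists (y axis) for P61S/R100E against P61S and against the wild type; filled red points are genes whose 2 groups of arrays did not overlap, open points overlap, blue bars are list medians and the dashed line is the median of all probes. Il24 (1.45 and 1.65) and Vip (1.68 and 1.72) lie apart from all other points on the right of both panels.

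The receptors of Il24 were at the edge of detection. Il22ra1 was well above background on 0 of 8 arrays, Il20ra on 1 and Il20rb on 3, none of them on every array of a group, so no difference was computed for them. Il10rb, the shared second chain of the interleukin-10 receptor, was above background on all 8 and differed by 0.19 (SE 0.11) from P61S and 0.03 from the wild type. Of the other ligands of that family, Il10, an anti-inflammatory cytokine, read -6.77, -6.88 and -6.80 with P61S/R100E, -6.58, -5.96 and -6.74 with P61S and -6.50 and -6.30 with the wild type. Its 3 P61S/R100E arrays were the lowest, with differences of -0.39 (SE 0.2) and -0.42 (SE 0.223), the former -0.16 without P61S replicate 2. Il20 differed by -0.04 and -0.22, with overlap.

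Other ligands of the gp130 family had 6 tested genes of 8, with a median of -0.04 against P61S and -0.08 against the wild type. Il11, a cytokine that also uses gp130, read -3.89, -4.35 and -4.56 with P61S/R100E, -3.97, -3.68 and -3.98 with P61S and -3.80 and -2.79 with the wild type. It was 0.51-fold of the wild type (log2 difference -0.97, SE 0.32), and -0.39 (SE 0.286) from P61S with overlap. Wild type replicate 2 was the highest array, and without it the difference from the wild type was -0.47. Osm, the ligand of Osmr, differed by 0.01 and -0.20. Ctf1 (-0.04 from P61S), Ctf2 (-0.04) and Ebi3 (-0.01) overlapped as well. Of the other receptors only Il6r and Il11ra1 were tested. Il6r, the binding chain for interleukin-6, was 0.26 (SE 0.113) above P61S with no overlap and 0.19 (SE 0.126) above the wild type with overlap, and Il11ra1 differed by -0.03 and -0.17.

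Among 9 tested Janus kinases and other Stat genes the largest differences were in Stat4 and Stat5a. Stat4, the factor that interleukin-12 activates in lymphocytes, read -5.27, -5.49 and -5.47 with P61S/R100E, -6.09, -5.91 and -6.15 with P61S, and -6.08 and -6.00 with the wild type. It was 1.56-fold of P61S (0.64, SE 0.103) and 1.54-fold of the wild type (0.63, SE 0.115), with no overlap. Stat5a, a factor of growth hormone and cytokine signalling read from 10 spots per array, was at -0.44, -0.70 and -0.60 against -0.99, -0.94 and -1.05 with P61S and -0.94 and -0.84 with the wild type. Its differences were 0.42 (SE 0.0936) and 0.31 (SE 0.105), again with no overlap. The lowest were Stat6 (-0.10) and Stat5b (-0.07) against P61S, both with overlap, and the median of the list was 0.08 against P61S and 0.06 against the wild type. Neither Stat4 (adjusted p = 0.30 and 0.56) nor Stat5a passed limma's test over all probes.

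No inhibitor of the pathway passed the test. The 13 tested negative regulators, Socs proteins, Pias proteins and phosphatases, spanned -0.21 (Socs1) to 0.13 (Ptpn2) against P61S, with a median of 0.03. Socs1, a relative of Socs3, overlapped with P61S and Pias3 differed by -0.09, while Socs5 differed by 0.11. The median against the wild type was -0.07. Second probes differed in sign from the brightest for Cish (-0.33 beside 0.03 against P61S) and for Bcl2l1 (0.35 beside -0.09) of another list.

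Genes that Stat3 is known to induce had differences of both signs. Of 22 tested, 4 were higher and 4 lower than P61S with no overlap (36.4% beside 14% of all probes), and the median of the 22 was 0.00. Against the wild type 0 were higher and 4 lower with no overlap (18.2%, beside 15.1% of all probes). Between P61S and the wild type 1 was higher and 5 lower (27.3%, beside 16.6%). Since the list was written with earlier results known, nothing is read from these counts. The transcription factor genes Myc (0.36, SE 0.124) and Cebpb (0.35, SE 0.102) had the largest positive differences from P61S, and the cyclin gene Ccnd1 (-0.28, SE 0.169) and Gfap, the intermediate filament of reactive glia (-0.24, SE 0.289), the most negative. Against the wild type Myc (0.17) and Cebpb (0.13) overlapped, and Ccnd1 differed by -0.50 (SE 0.189). Wild type replicate 2 was the highest array for Ccnd1 (1.18) and for Gfap (-3.07), and without it the Ccnd1 difference from the wild type was -0.16. The Gfap difference from P61S was -0.03 without P61S/R100E replicate 3. Junb and Bcl3, early targets of the factor, differed by 0.04 and 0.07 from P61S, and Timp1, a protease inhibitor, by -0.06.

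Neuronal genes that Lif and Cntf are known to regulate held the value nearest to Il24. Vip, the gene of vasoactive intestinal peptide, was 1.46, 1.54 and 1.32 with P61S/R100E, -0.38, 0.10 and -0.45 with P61S and -0.31 and -0.24 with the wild type. Gal, the galanin gene, was at 4.76, 4.66 and 4.72 against 4.12, 4.52 and 4.12 with P61S and 4.24 and 3.99 with the wild type, a difference of 0.46 (SE 0.136) and 0.60 (SE 0.152). Both separated the P61S/R100E arrays from all others. Reg3b, a secreted lectin of injured neurons that gp130 cytokines induce, was lower, by -0.52 (SE 0.086) and -0.47 (SE 0.0961), and Slc18a3, the vesicular acetylcholine transporter, differed by -0.30 (SE 0.232) from P61S with overlap. The median of the 11 tested genes was -0.06 against P61S and 0.10 against the wild type, so Vip and Gal were not the rule in their list.

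The 10 genes with the profile nearest to Il24 over the 8 arrays were found by the root-mean-square difference between profiles centred on their own mean, where Il24 itself varied by 0.771 (log2). Vip was nearest at 0.132, followed by Cmtm2a (0.170), Hpd, an enzyme of tyrosine breakdown (0.185), the orphan receptor gene Gprc5a (0.193) and Pde6b, a rod phosphodiesterase subunit (0.196). Cckbr, a cholecystokinin receptor (0.265), the lens crystallin gene Cryba2 (0.290), the epithelial keratin Krt19 (0.316), the tight junction gene Cldn4 (0.317) and the annexin gene Anxa3 (0.331) came next. Krt19 differed by 1.61 from P61S and 2.07 from the wild type. In 10 of the 10, as in Il24, P61S replicate 2 was the highest of the P61S arrays, although the choice by likeness favours this. A second Cckbr probe gave 0.35 from P61S where the chosen one gave 1.05, and a second Cmtm2a probe gave 1.06 beside 1.24.

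**Figure D4:**
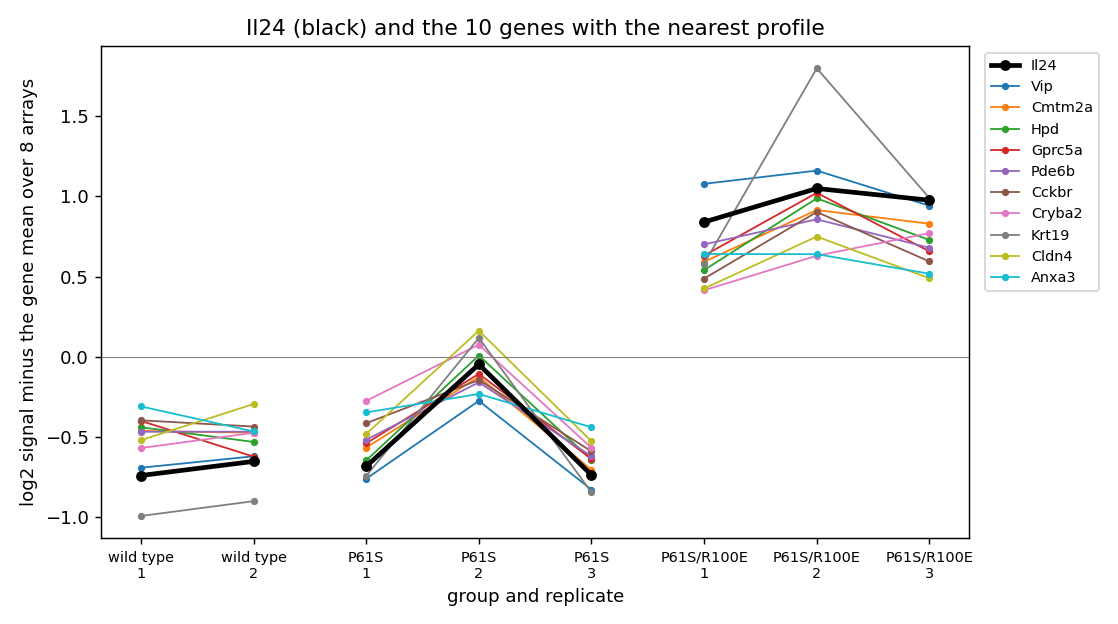
Log2 signal minus the mean of each gene over the 8 arrays (y axis) for Il24 (black) and the 10 genes with the nearest profile, by group and replicate (x axis); lines only join the arrays of a group and mean no order. All 11 genes are above their mean on the 3 P61S/R100E arrays, and P61S replicate 2 is the highest P61S array for each.

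For Il6, the 5 nearest profiles were those of the neurotrophin gene Bdnf (0.0446, with Il6 itself varying by 0.190), the mitochondrial carrier gene Ucp2 (0.0683), Fibin (0.0753), Rcbtb1 (0.0754) and Ube2v2 (0.0764). Bdnf was lower with P61S/R100E by -0.29 from P61S and -0.36 from the wild type. Second probes of Rcbtb1 (0.33 from P61S) and Ube2v2 (0.01) were not lower. For Socs3 the nearest were Jkampl (0.0360), Mapk13 (0.0498), Olr1454 (0.0593), Exoc8 (0.0599) and the ligand gene Osm (0.0604). All 5 were highest on wild type replicate 2, the array with the lowest 75th percentile, as Socs3 was.

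Markers of cells known to make Il24, such as T cells, monocytes and keratinocytes, were read beside it. Of 5 T cell probes Cd3e, Cd8a and Cd2 were well above background on 0 arrays, and 1 was above on all 8. The summed signal of the 8 macrophage markers was 2.50 to 2.89 with P61S/R100E, 2.48 to 3.71 with P61S and 2.47 to 2.48 with the wild type. The high P61S sum came from Cd68 on replicate 3 (0.64, beside -1.21 and -1.28 on the others). Ptprc, the leukocyte antigen CD45, and the macrophage receptor gene Adgre1 were higher on every P61S/R100E array than on all other arrays, as Il24 was. Ptprc read -4.42, -4.45 and -4.32 with P61S/R100E (0.24 from P61S and 0.30 from the wild type), and Adgre1 read -1.07, -1.27 and -1.28 (0.19 and 0.24). Of the other markers, Cd68 (-0.52), Cd14 (-0.09), C1qa (-0.05) and Csf1r (-0.03) were lower than with P61S, and Aif1 (0.17) and Itgam (0.05) higher. Against the wild type Csf1r (-0.18), Cd14 (-0.17) and Itgam (-0.14) were lower, and Aif1 (0.22), Cd68 (0.15) and C1qa (0.12) higher. Of the 8 macrophage markers 2 did not overlap with P61S (25%, beside 14% of all probes), both higher. Against the wild type 3 did not overlap (37.5%, beside 15.1% of all probes), all higher. With 8 genes, nothing is read from these counts. Of 3 keratinocyte probes 2 were above background on all arrays, and their list summed to 0.0960 to 0.107 with P61S/R100E, 0.0645 to 0.0787 with P61S and 0.0712 to 0.0751 with the wild type. Krt14 makes up most of this sum. With P61S/R100E it read -3.57, -3.38 and -3.45, where Krt5 read -6.51, -6.59 and -6.40. The sum therefore follows Krt14 and not the list. Krt14 had the larger difference (0.66 from P61S and 0.60 from the wild type), while Krt5, its partner keratin, differed by -0.01 and -0.16. The part of such cells in the Il24 signal was not tested.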

How the data were processed

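Labelled RNA of 8 samples was read on 1 slide of one-colour Agilent arrays. Per the file headers, the authors extracted intensity values with Feature Extraction 10.7.3.1 (design 028279, build rn4), background-subtracted and detrended. Here log2 of the processed intensity minus the log2 75th percentile of each array was taken, with control spots and outlier spots left out unless all spots of a probe were outliers, and spots averaged per probe. The authors' deposited log2 matrix, with medians of 9.82 to 10.33 per array, correlated at 0.999 or more with log2 of the scanner signals, so it is log2 and not centred, and served as an alternative. Probes got symbols by RefSeq accession (17998 of 30367), and the brightest probe stood for a gene. A probe was tested if most of its spots passed the scanner's background test on all arrays of 1 or more groups (23596 probes). Depth on arrays is set by their number.

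One limma fit (limma 3.58.1, R 4.3.3) of 8 arrays with 3 group means gave differences, SE and 95% intervals, with Benjamini-Hochberg adjustment over the whole table. Tested on simulated data for the comparison with P61S (23596 probes), the fit recovered 15 of 50 probes at 1.5-fold, 36 at 2-fold, 45 at 4-fold and 47 at 8-fold, and called 9 unchanged probes. The simulated noise was normal and independent for each probe and array, with no effect of slide position. These shares therefore need not hold for the real arrays. The members, lists and rules were chosen with earlier results of these data known. All 10 members are described; of each list, the 2 genes with the largest differences in each direction against P61S are named, and some others by choice after their values were seen. Some genes that this rule would name are not reported here. Alternatives of normalization, filter, model and left-out arrays were run. The scanner files hold median spot signals, which replaced the mean signals planned for normexp. Same-numbered arrays were checked for pairing by correlating their deviations from group means. Between P61S and P61S/R100E the correlations were -0.02 to 0.05, so the numbers were not taken as pairs. Correlations with wild type arrays ran from -0.198 to 0.167. They cannot decide, because the deviations of 2 arrays from their mean are equal and opposite. Python 3.11.15, pandas 2.3.3 and matplotlib 3.10.9 made tables and figures.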

Additional observations from a re-analysis of the deposited data

How the results depend on the processing

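The Il24 differences from P61S and from the wild type kept their sign in 17 alternatives, of which 12 changed the value in each comparison, from 1.10 to 1.67 and from 1.61 to 2.00. With the slide column as a covariate they were 1.10 and 2.00, and P61S against the wild type was 0.90, a fit in which column and protein are confounded. Leaving out single arrays gave 1.32 to 1.67, 1.61 to 1.71 and -0.01 to 0.33 in the order of the comparisons.

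limma's count of called probes, 0 in each comparison, was 1 against P61S with the deposited values, the filter on all 8 arrays or an adjusted p under 0.10, and 6 with a variance trend and robust hyperparameters. Against the wild type it was 1 under each of these 4 settings and with quantile normalization. Between P61S and the wild type it was 1 with quantile normalization and with normexp. Without single arrays it ran from 0 to 3, from 0 to 1284 and from 0 to 298. The upper ends of the last 2 came without wild type replicate 1, where the remaining wild type array, the one that stood apart, is assumed to vary like the other groups. Il24 was among the 1284. Among genes of the 7 lists the count went from 0 to 1 (Vip) with the variance trend in both comparisons of P61S/R100E, and from 0 to 1 and from 0 to 3 without single arrays. With the replicate number as a block, 0 probes were called in each comparison. The cause of these moves was not tested. The number of arrays limits the precision.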
